A study of Mus musculus with 8 samples.

Results

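Small leucine-rich proteoglycans (SLRPs) are secreted matrix proteins built on repeats rich in leucine, and 7 of them were followed here in tibialis anterior (TA) muscle. The members are decorin (*Dcn*), biglycan (*Bgn*), asporin (*Aspn*), lumican (*Lum*), prolargin (*Prelp*), osteoglycin (*Ogn*) and podocan (*Podn*). They were taken by gene symbol from the table of counts, and all 7 were among its 12551 genes. The study compared male wild-type (WT) mice with littermates that lack Klotho (KL-/-), the co-receptor for the phosphate-regulating hormone FGF23. Both genotypes came from Klotho +/- parents on a mixed background, and the mice were 7 weeks of age. Whole TA muscles of 4 WT and 4 KL-/- animals gave the sequenced RNA, and no further treatment is named for either genotype. The mutation is carried by the whole animal, so the comparison does not separate muscle from the rest of the body.

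In muscle, SLRPs are made mainly by fibroblasts of the connective tissue around fibres and fascicles, and by tendon cells. Their leucine-rich core binds collagen fibrils and sets how wide and how regular the fibrils become. Most of them carry chains of chondroitin or dermatan sulfate, or of keratan sulfate, and decorin, biglycan and asporin also bind growth factors of the TGF-beta family. Decorin binds myostatin, a secreted inhibitor of muscle growth.

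Library totals were 20860262 to 26501093 counts in WT and 22061526 to 29273758 in KL-/-. Values are counts relative to library size (CPM) scaled with edgeR's TMM factors. Means are given with the SD over 4 mice, and SE is the standard error of a log2 fold change, which is KL-/- over WT. The transcript of *Kl* is not among the counted genes, so in these counts the genotypes rest on the labels. The paper reports genotyping of the mice by PCR, and neither Klotho protein nor *Kl* mRNA was detectable in its KL-/- muscles. KL-/- replicate 3 carries another batch label than the other 7 libraries. That label sits on 1 mouse of 1 genotype, so the batch and that mouse cannot be told apart, and the calls below are given with a note where they were lost without it. The labelled tissue was borne out by its markers: 6 genes of muscle fibres together held 102991 to 121846 CPM per WT library and 121355 to 170139 CPM per KL-/- library.

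The members lie at 5 places in the genome (mm10). *Dcn* (chromosome 10, 97479500 to 97518162) and *Lum* (chromosome 10, 97565501 to 97572703) are neighbours on the plus strand, with keratocan (*Kera*) beyond them. *Aspn* (chromosome 13, 49544443 to 49567562) and *Ogn* (chromosome 13, 49608071 to 49624500) flank osteomodulin (*Omd*). *Prelp* (chromosome 1, 133910304 to 133921401, minus strand) lies beside fibromodulin (*Fmod*). *Bgn* (chromosome X, 73483635 to 73495936) and *Podn* (chromosome 4, 108014793 to 108032090, minus strand) have no other counted SLRP gene on their chromosome.

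RefSeq start windows, from 250 bases before to 50 bases after an annotated start, were found for 5 of the 7 members on GRCm38.p6, the assembly of mm10. Windows of 4 members are shown, because the ratio to *Dcn* varied less across the libraries for *Prelp* and *Ogn* than for *Aspn* and *Podn*. *Dcn* was counted 9.54 to 10.1 times as often as *Ogn* in WT and 8.03 to 9.56 times in KL-/- muscle. Capitals mark matches on either strand to TATAAA, the core of the TATA box, to CCAAT, a motif bound by the factor NF-Y, and to GGGCGG, the GC box bound by Sp1. Of 32851 RefSeq windows of this length, the TATA motif was found in 13.6%, the NF-Y motif in 37.4% and the GC box in 35.7%.
Prelp (chr1:133921352-133921651, minus strand): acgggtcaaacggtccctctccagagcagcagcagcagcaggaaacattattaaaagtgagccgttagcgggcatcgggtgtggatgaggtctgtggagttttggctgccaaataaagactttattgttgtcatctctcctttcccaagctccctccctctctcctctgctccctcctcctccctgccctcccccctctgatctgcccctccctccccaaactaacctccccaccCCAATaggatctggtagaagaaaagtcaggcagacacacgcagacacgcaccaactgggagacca
Ogn (chr13:49607765-49608064, plus strand): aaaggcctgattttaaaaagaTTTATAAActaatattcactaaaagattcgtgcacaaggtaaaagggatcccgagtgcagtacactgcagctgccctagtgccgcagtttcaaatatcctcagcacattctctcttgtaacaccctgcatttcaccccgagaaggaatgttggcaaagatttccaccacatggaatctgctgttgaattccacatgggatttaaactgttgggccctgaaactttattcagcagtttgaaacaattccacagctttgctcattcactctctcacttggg
Aspn (chr13:49544193-49544492, plus strand): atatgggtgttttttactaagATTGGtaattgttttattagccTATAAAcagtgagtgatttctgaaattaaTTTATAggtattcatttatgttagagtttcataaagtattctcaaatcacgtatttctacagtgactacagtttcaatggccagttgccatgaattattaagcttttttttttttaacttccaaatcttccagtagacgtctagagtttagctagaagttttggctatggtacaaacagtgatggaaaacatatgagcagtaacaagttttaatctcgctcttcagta
Podn (chr4:108031905-108032204, minus strand): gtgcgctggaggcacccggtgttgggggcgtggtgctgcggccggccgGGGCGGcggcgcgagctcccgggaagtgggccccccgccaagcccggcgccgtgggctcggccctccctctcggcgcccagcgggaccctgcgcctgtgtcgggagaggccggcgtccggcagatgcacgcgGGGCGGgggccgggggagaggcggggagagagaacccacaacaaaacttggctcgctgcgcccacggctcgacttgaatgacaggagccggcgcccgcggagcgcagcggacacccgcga

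The windows had little base composition in common. G and C made up 77.0% of the *Podn* window, 55.3% of the *Prelp* window, 42.3% of the *Ogn* window and 31.0% of the *Aspn* window, against a median of 52.7% over all windows. *Podn* held the GC box 2 times, *Prelp* held the NF-Y motif 1 time, and the *Aspn* and *Ogn* windows each held the TATA motif on both strands. These TATA matches began at positions −207 and −178 from the annotated start in *Aspn* and at −229 and −227 in *Ogn*. *Aspn* also held the NF-Y motif 1 time. In *Ogn* the pair of matches overlap and share their middle bases. The *Bgn* window had 63.7% G and C and held the GC box 3 times, with an overlap between a pair of them. *Podn* has a second RefSeq window with none of the 3 motifs. A match is a run of letters only, and no binding was measured.

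Of the 7 SLRP transcripts, 3 were lower in KL-/- muscle. *Dcn* fell to 0.520 of its WT level, *Lum* to 0.401 and *Prelp* to 0.540, and in each of them every KL-/- muscle lay below every WT muscle. *Bgn* and *Ogn* were lower on average but did not pass the test, and neither did *Aspn* and *Podn*. Genes were compared with the quasi-likelihood (QL) F-test of edgeR, and QL FDR is its p after Benjamini-Hochberg adjustment over all 12551 genes. At a QL FDR under 0.05, 3 of the 7 members were lower, where 6.67% of all genes were. No member was called higher, where 7.35% of all genes were. All 7 had a negative log2 fold change, as did 6573 of the 12551 genes. The median log2 fold change of the 7 members was −0.79, against −0.016 over all genes. An unadjusted p under 0.05 was reached by 5 members, all lower, and by 4031 of the 12551 genes in either direction. Fewer cells that make a transcript and less of it per cell cannot be told apart in RNA of whole muscle.

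**Figure D1:**
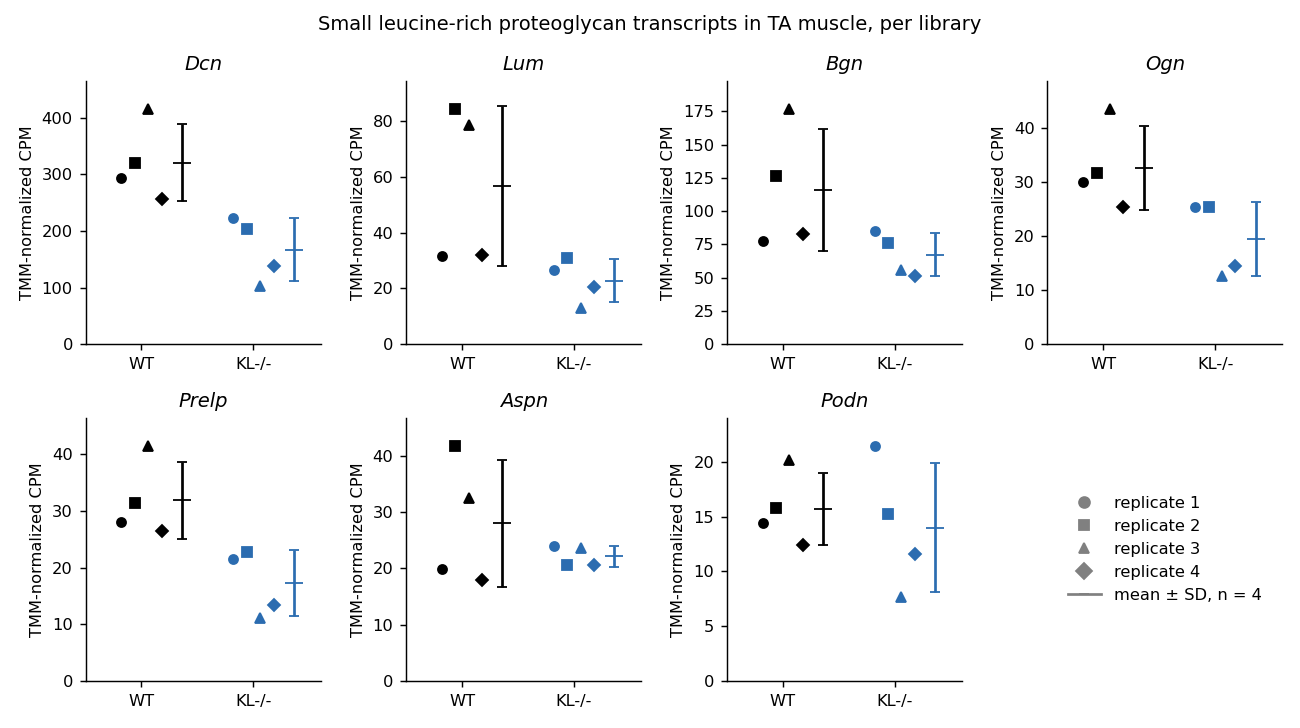
Each panel plots TMM-normalized CPM of 1 SLRP gene from 0 upward, with 1 symbol per library (shape gives the replicate number), WT in black and KL-/- in blue, and the mean ± SD beside each group of 4. *Dcn*, *Lum* and *Prelp* show no overlap between genotypes, and the KL-/- samples of *Aspn* lie within 20.5 to 23.9 CPM.

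Decorin, biglycan and asporin form class I of the family. *Dcn*, the collagen-binding proteoglycan that also holds TGF-beta and myostatin, was at 293, 320, 415 and 256 CPM in WT replicates 1 to 4. In KL-/- replicates 1 to 4 it was at 223, 204, 104 and 138 CPM. The lowest WT muscle lay above the highest KL-/- muscle, and KL-/- replicates 3 and 4 were the low ones. The WT mean of 321 ± 67.9 CPM stood against 167 ± 55.9 CPM in KL-/- mice (SD, n = 4), which gave a log2 fold change of −0.94 (SE 0.24, QL FDR = 0.0305).

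*Bgn*, which carries chondroitin or dermatan sulfate chains and can signal through Toll-like receptors once released, was at 77.8, 127, 177 and 83.1 CPM in WT. Its KL-/- values were 85.3, 75.8, 56.0 and 51.4 CPM. WT replicates 2 and 3 stood above the rest, while WT replicates 1 and 4 lay among the higher KL-/- values. The means of 116 ± 45.9 and 67.1 ± 16.1 CPM gave a log2 fold change of −0.79 (SE 0.27), and the QL FDR of 0.0748 did not pass.

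*Aspn*, a class I member without a sulfated chain that can block TGF-beta, was at 19.9, 41.8, 32.4 and 17.9 CPM in WT replicates 1 to 4. The KL-/- values were 23.9, 20.5, 23.7 and 20.6 CPM. The KL-/- samples hardly varied, with the highest 1.17 times the lowest, whereas the WT samples spanned 2.34 times and reached both above and below them. Its log2 fold change was −0.33 (SE 0.24, QL FDR = 0.363), and it was −0.077 without WT replicate 2 and −0.50 without WT replicate 4. In *Aspn*, KL-/- replicate 3 was not the low sample that it was in *Dcn*. An opposite-strand gene, *Cenpp*, shares 7 exon bases with *Aspn* and averaged under 1 CPM.

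Lumican and prolargin belong to class II, whose members often carry keratan sulfate. *Lum*, which regulates fibril assembly, was at 31.8, 84.3, 78.8 and 31.9 CPM in WT samples and at 26.5, 30.9, 13.1 and 20.4 CPM in KL-/- muscle. The genotypes did not overlap, but WT replicates 1 and 4 lay close above KL-/- replicate 2, and WT replicates 2 and 3 were far higher. The means were 56.7 ± 28.8 and 22.7 ± 7.75 CPM (SD, n = 4). The log2 fold change of −1.32 was the most negative of the members and also the least precise (SE 0.38, QL FDR = 0.0460).

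*Prelp*, which links basement membranes to the collagen beneath, was at 28.0, 31.5, 41.4 and 26.4 CPM in WT. In KL-/- muscle it was at 21.5, 22.8, 11.1 and 13.4 CPM. Every KL-/- value was below every WT value, with the same pair of low samples as in *Dcn*. The means of 31.8 ± 6.75 and 17.2 ± 5.82 CPM gave a log2 fold change of −0.89 (SE 0.24, QL FDR = 0.0364). An antisense gene, *Gm15851*, shares 350 exon bases with it, 9.72% of the length used in counting. Use of strand in the counting is not given in the sources used here, so reads from the antisense gene cannot be separated.

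Osteoglycin is the class III member, a collagen-binding proteoglycan first studied in bone, and podocan stands in class V. *Ogn* was at 30.1, 31.7, 43.5 and 25.4 CPM in WT samples and at 25.4, 25.5, 12.6 and 14.4 CPM in KL-/- muscle. WT replicate 4 lay between KL-/- replicates 3 and 4 on one side and replicates 1 and 2 on the other, which made the genotypes overlap by a narrow margin. The log2 fold change was −0.75 (SE 0.25, QL FDR = 0.0746).

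*Podn* was the member whose mean changed least, at 14.5, 15.8, 20.2 and 12.4 CPM in WT samples and at 21.4, 15.3, 7.67 and 11.6 CPM in KL-/- muscle. KL-/- replicate 1 was the highest of the 8 libraries and KL-/- replicate 3 the lowest, so the KL-/- samples spanned 2.80 times. The log2 fold change of −0.16 was smaller than its SE of 0.28 (QL FDR = 0.714), and it turned to 0.039 without KL-/- replicate 3.

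The calls of *Dcn*, *Lum* and *Prelp* were lost in several fits without 1 sample, in which fewer genes of the whole table were called as well. Without KL-/- replicate 3 no member passed edgeR's QL F-test, where 2.82% of all genes were still called lower. The log2 fold changes of *Dcn*, *Lum* and *Prelp* were then −0.77, −1.13 and −0.73. An unadjusted p under 0.05 was reached by 5 members in that fit, and by 3187 of all 12551 genes. No member passed without WT replicate 2, WT replicate 3 or KL-/- replicate 4 either, and without WT replicate 1 only *Lum* did. Of all 12551 genes, 376, 361, 343 and 536 were called lower in these fits, in that order. With all 8 samples 837 were. *Lum* also lost its call without KL-/- replicate 1 and with limma-voom, while *Ogn* gained one with DESeq2, and *Bgn* and *Ogn* did with the likelihood ratio test or when scaled by library totals alone. Over the 8 fits that each left out 1 sample, the log2 fold change ranged from −1.10 to −0.77 for *Dcn*, from −1.52 to −1.06 for *Lum* and from −1.04 to −0.73 for *Prelp*. Genotypes without overlap were seen in 3 members, all lower, where 9.47% of all genes were lower without overlap.

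**Figure D2:**
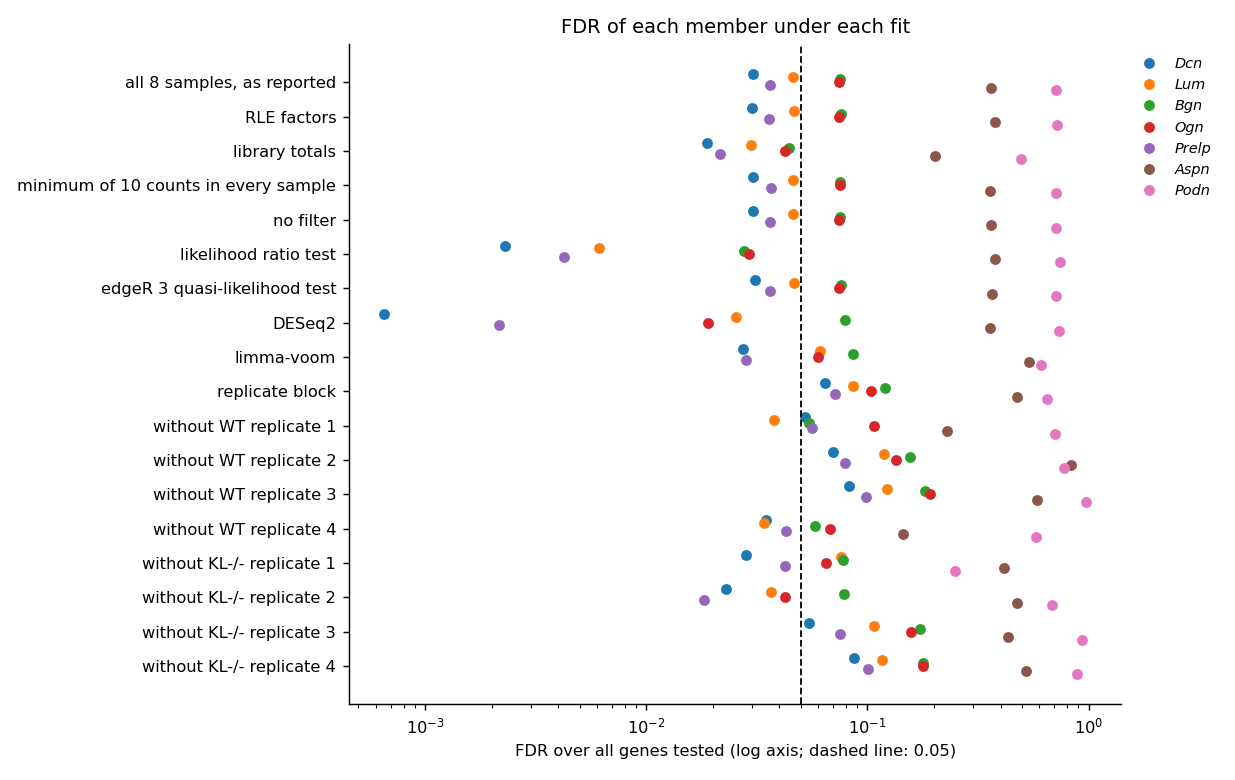
The FDR of each SLRP gene (coloured points, log axis) is plotted for each fit, with a dashed line at 0.05. With all 8 samples *Dcn*, *Prelp* and *Lum* lie left of the line, and without WT replicate 2, WT replicate 3, KL-/- replicate 3 or KL-/- replicate 4 no member does.

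To compare levels between members, CPM were divided by the gene length in kilobases from the count table. *Dcn* led in both genotypes, at 154 CPM per kb in WT against 80.2 CPM per kb in KL-/- muscle. In WT it was followed by *Bgn* (48.6), *Lum* (27.3), *Ogn* (12.9), *Aspn* (11.9), *Prelp* (8.84) and *Podn* (4.53 CPM per kb). Only *Dcn* from *Bgn*, and *Prelp* from *Podn*, were apart without overlap of their samples in WT. In KL-/- muscle the order was *Dcn*, *Bgn* (28.1), *Lum* (10.95), *Aspn* (9.43), *Ogn* (7.67), *Prelp* (4.77) and *Podn* (4.04 CPM per kb), and samples of neighbours overlapped from *Lum* downward. *Aspn* and *Ogn* thus stood in the other order, though their samples overlapped in both genotypes.

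Summed over the 7 members, the level was 221, 291, 359 and 202 CPM per kb in WT against 188, 174, 99.8 and 119 CPM per kb in KL-/- muscle. The genotypes did not overlap, and the KL-/- mean was 0.541 of the WT mean. *Dcn* made up 58.2% ± 4.99 of this sum in WT against 54.7% ± 3.28 in KL-/- mice (SD, n = 4), with overlap. The share of *Lum* was 9.78% ± 3.21 in WT and 7.49% ± 1.10 in KL-/- muscle, and that of *Bgn* was 17.7% ± 2.41 and 19.7% ± 2.57. *Aspn* held 3.83%, 6.11%, 3.84% and 3.77% in WT and 5.42%, 5.01%, 10.1% and 7.36% in KL-/- muscle. *Podn* was the only member whose share had no overlap, at 1.71% ± 0.149 in WT and 2.71% ± 0.460 in KL-/- muscle. These shares were examined after the values had been seen and were not tested.

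Within a library the counts of some members kept almost fixed proportions. *Dcn* was counted 10.4, 10.2, 10.02 and 9.73 times as often as *Prelp* in WT and 10.3, 8.99, 9.32 and 10.3 times in KL-/- muscle. Against *Podn* the ratio was 20.3, 20.3, 20.6 and 20.6 in WT and 10.4, 13.4, 13.5 and 11.9 in KL-/- muscle. *Podn* thus tracked *Dcn* closely among WT mice, while relative to *Dcn* it was higher in every KL-/- muscle, by 0.74 on the log2 scale. With each sample left out this difference ranged from 0.66 to 0.79. Other pairs varied more: the ratio of *Dcn* to *Aspn* ran from 7.66 to 14.7 among WT mice and from 4.38 to 9.97 among KL-/- mice.

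**Figure D3:**
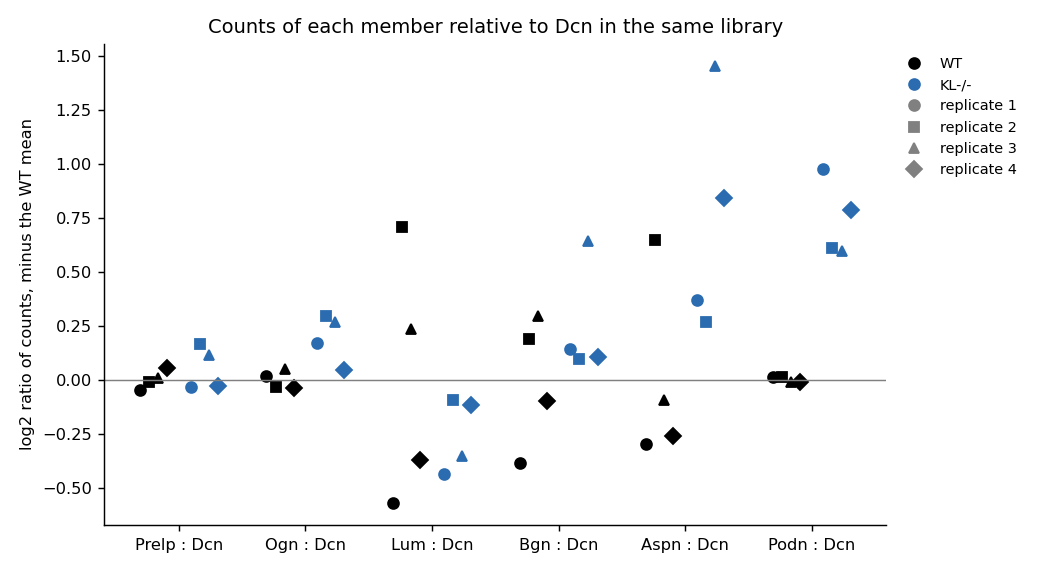
The log2 ratio of each member's counts to the *Dcn* counts of the same library is plotted minus its WT mean, with 1 symbol per library, WT in black and KL-/- in blue. *Podn* sits close to 0 in all 4 WT libraries and well above it in all 4 KL-/- libraries, whereas *Lum*, *Bgn* and *Aspn* scatter in both genotypes.

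Of the 21 pairs of members, 6 had a ratio without overlap between genotypes, or 28.6%, where the share was 19.7% over the 78682240 pairs of the 12545 genes counted in every library. *Podn* was in 4 of these 6, with *Dcn*, *Lum*, *Ogn* and *Prelp*, and the others were *Lum* with *Aspn* and *Ogn* with *Prelp*. A higher ratio to *Dcn* in KL-/- muscle was common: of the other 12544 genes, 61.1% had one without overlap. Leaving out a sample cannot lower the number of member pairs without overlap. It was 10 without WT replicate 2, for which no share over all pairs was computed. The ratios were chosen after the values had been seen, and whether *Podn* and *Dcn* responded differently was not tested.

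The samples that were high or low were largely shared. WT replicate 3 was the highest WT sample in 5 of the 7 members, and WT replicate 2 in *Lum* and *Aspn*. KL-/- replicate 3 was the lowest KL-/- sample in 5 members, the exceptions being *Bgn* and *Aspn*. The mean profile of the 7 members over the 8 libraries was 0.078, 0.60, 0.83 and −0.036 in WT and 0.033, −0.066, −0.85 and −0.59 in KL-/- muscle, in log2 CPM around its own mean. WT replicate 4 therefore lay below KL-/- replicate 1 in this profile, which weights the members equally.

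Each member's own profile differed from that mean by a root mean square of 0.14 (*Ogn*) to 0.41 (*Aspn*) in log2 units. The members form the mean, so this distance is smaller for them by construction. The 5 other genes with the smallest difference, over the 8 samples, were *Olfml1* (0.065), *Loxl1* (0.072), *Rarres2* (0.082), *Ddr2* (0.090) and *Pcdh7* (0.099). *Loxl1* encodes an enzyme that cross-links elastin, *Ddr2* a receptor for fibrillar collagen and *Rarres2* the adipokine chemerin. They were picked for following a profile that is lower in KL-/- muscle, so their direction was fixed by the choice, and the log2 fold changes of −0.88 for *Loxl1* and −0.77 for *Ddr2* are a description.

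Of 11 other SLRP genes listed, 7 were counted, all with a negative log2 fold change and a median of −0.46. Negative values were found in 6573 of all 12551 genes. Of the 7, 2 were called lower, where 6.67% of all genes were. *Fmod*, a class II collagen binder abundant in tendon, fell from 58.9 ± 11.2 CPM to 30.5 ± 12.2 CPM (log2 fold change −0.95, QL FDR = 0.0477). *Kera*, a keratan sulfate proteoglycan of cornea and tendon, fell from 16.9 ± 6.95 to 4.46 ± 3.94 CPM, with overlap (log2 fold change −1.96, QL FDR = 0.0390). Neither passed without WT replicate 1, 2 or 3 or KL-/- replicate 3 or 4. *Ecm2* had a log2 fold change of −0.45 (QL FDR = 0.0971), and *Omd*, *Chad*, *Chadl* and *Tsku*, all under 2 CPM, did not pass. In chromosome order, the 3 SLRP genes on chromosome 10 and the 2 on chromosome 1 were called lower, whereas 0 of the 4 on chromosome 13 were, a grouping that was noticed in the values and not tested.

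**Figure D4:**
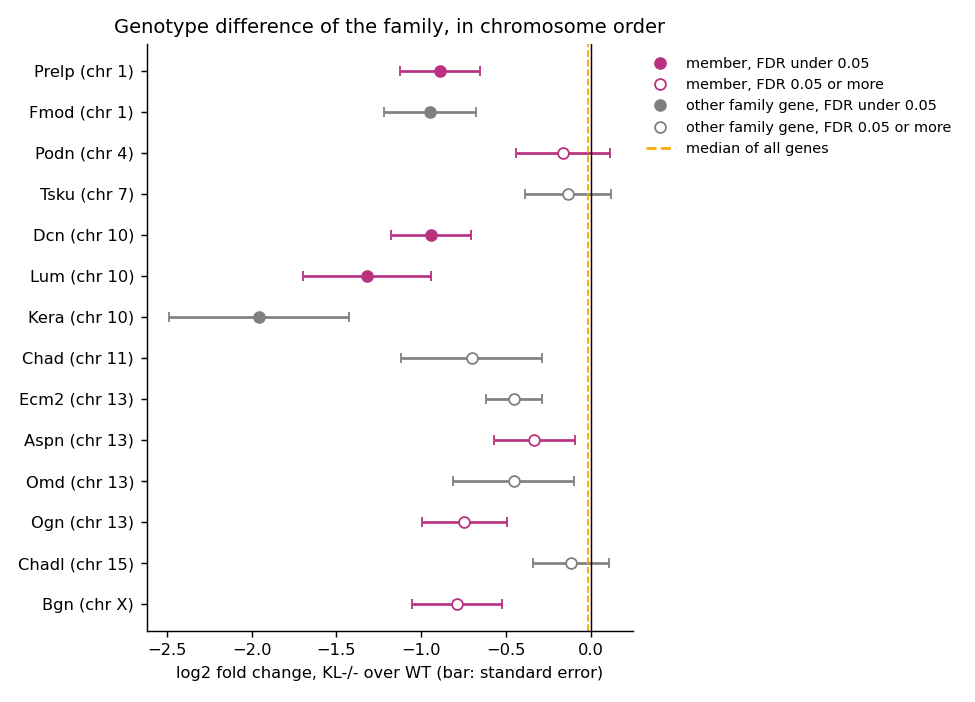
Log2 fold changes of KL-/- over WT with standard errors are plotted for the 7 members (magenta) and the 7 other counted SLRP genes (grey) in chromosome order, filled where the FDR is under 0.05, with a dashed line at the median of all genes. *Dcn*, *Lum* and *Kera* on chromosome 10 and *Prelp* and *Fmod* on chromosome 1 are filled, and all 14 points lie below 0.

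The enzymes that build the sugar chains were described from a list. Among 20 counted enzymes of chondroitin and dermatan sulfate, *Xylt1*, which attaches the first sugar to the core protein, was the only one called, falling from 4.52 ± 0.289 to 3.04 ± 0.3502 CPM (log2 fold change −0.58, QL FDR = 0.0184). That is 1 of 20 where 6.67% of all genes were lower, and the call was lost without WT replicate 2, KL-/- replicate 3 or KL-/- replicate 4. The median log2 fold change of this list was −0.42. An unadjusted p under 0.05 was reached by 8 enzymes, all lower, and by 4031 of all 12551 genes in either direction. The most abundant, the xylose kinase *Fam20b*, was at 89.8 ± 8.52 and 75.4 ± 5.94 CPM (QL FDR = 0.0735). None of the 5 counted enzymes of keratan sulfate passed by edgeR's QL F-test, DESeq2 or limma-voom, and none had an unadjusted p under 0.05 in the first. Their median log2 fold change was −0.082, and *B4galt1*, the most abundant, was at 56.5 ± 5.22 and 54.4 ± 7.41 CPM.

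The 11 collagen genes whose fibrils SLRPs bind all had negative log2 fold changes, as did 6573 of all 12551 genes. The median of the 11 was −1.16, but 0 of them passed edgeR's QL F-test. An unadjusted p under 0.05 was reached by 9 of them, and by 4031 of all 12551 genes in either direction. With DESeq2 1 passed as lower, where 1143 of all 12551 genes did. With the likelihood ratio test 4 did, where 1099 of all genes did, and with limma-voom 0, where 871 did. *Col3a1*, the most abundant, was at 893 ± 610 CPM in WT against 327 ± 199 CPM in KL-/- muscle (log2 fold change −1.45, SE 0.59, QL FDR = 0.126). Its SD in WT was far wider, relative to the mean, than that of *Dcn*.

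Of 24 counted growth factors, receptors and matrix proteins that bind SLRPs, 3 were higher, where 7.35% of all genes were, and 2 lower, where 6.67% were. The myostatin gene *Mstn* rose from 39.2 ± 5.84 to 68.7 ± 10.9 CPM (log2 fold change 0.81, QL FDR = 0.00736), without overlap between genotypes. *Ctgf*, a matricellular growth factor gene, rose by 0.62 on the log2 scale (QL FDR = 0.0238) and the IGF-1 receptor *Igf1r* by 0.72 (QL FDR = 0.0343). The fibrillin gene *Fbn1* had a log2 fold change of −1.37 (QL FDR = 0.0295) and the VEGF receptor *Kdr* of −0.90 (QL FDR = 0.00781). *Mstn* and *Kdr* were called with any 1 sample left out, whereas *Ctgf*, *Igf1r* and *Fbn1* each lost the call without WT replicate 3, KL-/- replicate 1 or KL-/- replicate 3, among others. *Hspg2*, which encodes perlecan and was the most abundant of them, was at 469 ± 96.5 and 332 ± 46.3 CPM (QL FDR = 0.0535). Of 8 counted proteases that cleave SLRPs or related proteoglycans, 2 were called lower, where 6.67% of all genes were. They were *Adamts5* (log2 fold change −0.82, QL FDR = 0.0360) and *Htra1* (log2 fold change −0.84, QL FDR = 0.0415). Both calls were lost without WT replicate 2, WT replicate 3 or any of KL-/- replicates 1, 3 and 4. *Adamts1* had a log2 fold change of 0.57 (QL FDR = 0.0630) and was called higher by DESeq2 and the likelihood ratio test. *Mmp2*, the most abundant on average over both genotypes, did not pass (log2 fold change −0.77, QL FDR = 0.119).

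Among 11 markers of fibro-adipogenic progenitors and fibroblasts, cells that make SLRPs, 4 fell in KL-/- muscle by edgeR's QL F-test. Of all genes, 6.67% were called lower. All 11 markers had negative log2 fold changes, as did 6573 of all 12551 genes, and the median of the 11 was −0.88. The 4 were *Clec3b* (log2 fold change −1.26, QL FDR = 0.0389), *Dpt* (log2 fold change −1.21, QL FDR = 0.0283), *Dpp4* (log2 fold change −0.92, QL FDR = 0.0494) and *Gsn* (log2 fold change −0.88, QL FDR = 0.0340), and each lost its call without any 1 of WT replicates 1 to 3 or KL-/- replicates 3 and 4. The summed level of the 11 was 863 to 1334 CPM in WT against 422 to 849 CPM in KL-/- muscle, without overlap, and *Gsn*, which many other cells also express, contributed the most. None of the 11 was at 0 in any library. Without KL-/- replicate 3, 0 of them passed and 8 had an unadjusted p under 0.05, as did 3187 of all 12551 genes. *Pdgfra*, the defining receptor of these cells, was at 24.4 ± 9.54 and 13.6 ± 5.24 CPM and did not pass (QL FDR = 0.1102).

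Relative to these markers the SLRP level did not separate the genotypes. The summed CPM of the 7 members divided by the summed CPM of the 11 fibroblast markers was 0.477, 0.576, 0.606 and 0.525 in WT and 0.502, 0.618, 0.540 and 0.562 in KL-/- muscle. The means were 0.546 ± 0.0568 and 0.556 ± 0.0485 (SD, n = 4), and the genotypes overlapped throughout. The part of a change in cell number in the lower SLRP level was not tested.

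**Figure D5:**
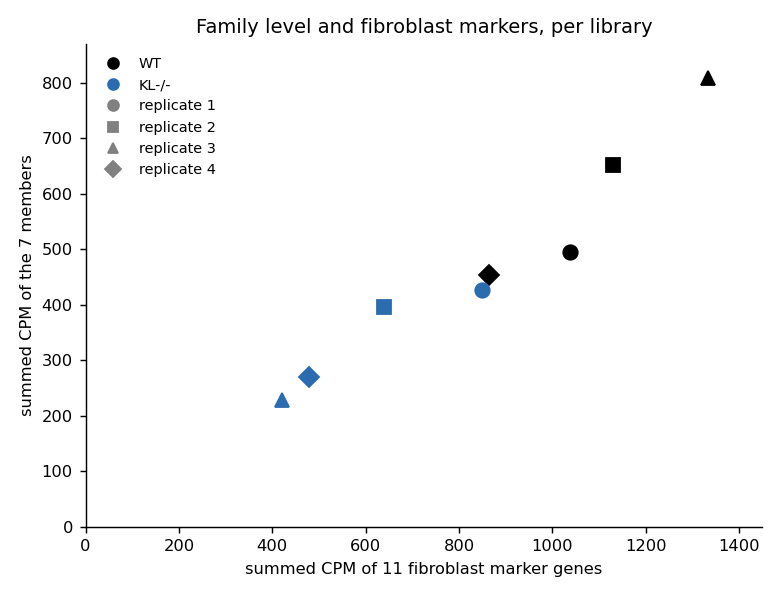
The summed CPM of the 7 SLRP genes (vertical axis) is plotted against the summed CPM of 11 fibroblast marker genes (horizontal axis), both from 0, with 1 symbol per library, WT in black and KL-/- in blue. Libraries with more fibroblast marker RNA had more SLRP RNA in both genotypes, and the ratio of the sums lay between 0.477 and 0.618.

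The 6 tenocyte markers summed to 143 to 169 CPM in WT against 53.3 to 113 CPM in KL-/- muscle without overlap, most of it from *Thbs4*, which fell by 0.92 on the log2 scale (QL FDR = 0.0387), while the tendon factor *Scx* had a log2 fold change of 0.16 (QL FDR = 0.563). The *Thbs4* call was lost without any 1 of the WT samples or KL-/- replicate 3. Called lower were 1 of 6 tenocyte, 1 of 5 endothelial and 1 of 4 counted leukocyte markers, where 6.67% of all genes were. *Kdr* was the endothelial marker called, and all 5 had negative log2 fold changes, with a median of −0.23. The leukocyte marker called was *Adgre1* (log2 fold change −1.52, QL FDR = 0.0364), a call lost without WT replicate 1, 2 or 3 or KL-/- replicate 3 or 4. All 4 leukocyte markers had negative log2 fold changes, and they summed to 13.3 to 28.4 CPM in WT against 6.34 to 14.4 CPM in KL-/- muscle. The Schwann cell markers *Sox10* (log2 fold change 0.95, QL FDR = 0.0125) and *Mbp* (log2 fold change 0.62, QL FDR = 0.0251) rose, without overlap between genotypes. Of all genes, 7.35% were called higher. The *Mbp* call was lost without WT replicate 4 or KL-/- replicate 3 or 4. None of the markers of muscle fibres (6 genes), pericytes and smooth muscle (5), satellite cells (3) or adipocytes (2) passed edgeR's QL F-test. At an unadjusted p under 0.05 there was 1 fibre marker and 0 of the others, where there were 4031 of all 12551 genes in either direction. With DESeq2 2 fibre markers passed, where 2456 of all genes did in either direction, and with limma-voom 1, where 1775 did. The part of these cell types in the SLRP values was not tested.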

How the data were processed

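The starting point was a table of counts per gene for TA muscles of 4 WT and 4 KL-/- mice. The authors mapped the reads to mm10 (STAR), assigned them to genes (featureCounts) and deposited raw counts without normalization. The labels name total RNA, and the study's methods mRNA sequencing. Strand setting and annotation are not given in the sources used here. Group and replicate number of each mouse were read from its label, and no pairing is named. No pair of libraries of a genotype agreed within sampling noise (chi-square per gene of 9.91 or more).

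edgeR 4.0.16 (R 4.3.3) was used with its low-count filter, which kept all 12551 genes, TMM factors and a genotype-only design. Its quasi-likelihood F-test was followed by Benjamini-Hochberg adjustment over all genes, at an FDR under 0.05. The current form of that test was set by hand (legacy = FALSE), since this version defaults to the edgeR 3 form, which was an alternative. Other alternatives were RLE factors, library totals, a minimum of 10 counts in every sample, no filter, the likelihood ratio test, DESeq2 1.42.0, limma-voom (limma 3.58.1), the replicate number as a block, sums without gene length, and each sample left out in turn. Tests were tested on simulated data. A floor of 3 counts was 0.105 to 0.143 CPM.

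Profiles were computed on log2 CPM (prior count 2). Named genes are the 7 members, up to 3 called genes per direction and the most abundant gene of each list, genes that a result turns on, and the 5 genes nearest to the members' mean profile. The members and the gene lists were chosen with earlier results of these data known. *Ctgf* was matched to the listed *Ccn2* by synonym, and a listed duplicate, *Ccn4*, was counted once as *Wisp1*. One gene of the marker lists is not reported here. Overlaps with other genes were read from GENCODE M21 and start windows from RefSeq.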

Additional observations from a re-analysis of the deposited data

Results flagged for a closer look

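The share of *Aspn* in the summed CPM per kb of the 7 members had a WT sample far from the others. WT replicate 2 was at 6.11%, against 3.77% to 3.84% in the other WT samples, and its gap to the nearest of them was 0.969 of the whole range, above Dixon's critical value for 4 samples. In all, 42 groups of 4 were read in this way, 1 was marked, and chance marks about 1 in 20. The cause was not tested.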

How the results depend on the processing

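*Dcn* and *Prelp* kept their direction and call under other scalings, filters and tests with all 8 samples, except the replicate block. Library totals in place of TMM factors moved the median of all genes from −0.016 to −0.13, with 2127 of 2619 called genes lower against 837 of 1759, and called 5 members, adding *Bgn* (−0.91) and *Ogn* (−0.86). The likelihood ratio test also called 5 members, with *Bgn* at −0.79 and *Ogn* at −0.75, and DESeq2 added *Ogn* (−0.74). With limma-voom *Lum* (−1.24) did not pass. DESeq2 called 2456 genes, limma-voom 1775 and the likelihood ratio test 2124.

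Leaving out 1 sample gave 0 to 4 members lower and 762 to 2755 genes called. The log2 fold change ranged from −1.10 to −0.77 for *Dcn*, −1.52 to −1.06 for *Lum*, −1.04 to −0.73 for *Prelp*, −0.90 to −0.58 for *Ogn*, −0.94 to −0.51 for *Bgn*, −0.50 to −0.077 for *Aspn* and −0.44 to 0.039 for *Podn*, whose sign turned (0.039) without KL-/- replicate 3. Pairs of members with a ratio without overlap numbered 6 to 10, an alternative chosen after seeing the data. Leaving out a sample cannot lower that number, so the range does not measure stability.

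Replicate numbers are shared by the genotypes, but deviations of same-numbered samples correlated at −0.15, 0.18, −0.37 and 0.017, and 0 of the numbers matched best with themselves. A pairing by number was therefore not seen, but 4 mice per genotype cannot exclude a weak one. The replicate block gave 671 genes and 0 members, with *Dcn* at −0.98, *Lum* at −1.22 and *Prelp* at −0.92. In it 5 members had an unadjusted p under 0.05, as did 3472 of all 12551 genes. Without gene length the share of *Podn* differed by 1.496 percentage points in place of 1.001. Depth was not limiting for the members, each counted well above the floor of 3, and precision rests on 4 mice per genotype.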
